A study of Mus musculus with 24 samples.

Results

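The response of wild type skeletal muscle to inhibition of HSP90 was read from 4 libraries of quadriceps femoris RNA, 2 from mice given HSP990 (WT HSP990) and 2 from mice given vehicle (WT vehicle), out of 24 libraries in the series. The 4 libraries were taken by their labels and by no measured value, and the response was described over the 13754 of 18669 genes that had 2 or more counts in 10 or more of the 24 libraries. All 4 mice were wild type, of the CBA x C57BL/6 F1 background, 12 weeks old, and muscle was taken 4 h after dosing. HSP990 is a small-molecule inhibitor of HSP90. It was given at 12 mg/kg by oral gavage, suspended with 0.2% methyl cellulose in saline, and the vehicle label names saline without methyl cellulose, so drug and suspending agent cannot be told apart. The response was set beside 3 others, each from 2 treated and 2 untreated mice of the same background at the same time: HSP990 against vehicle in 8 week old Hsf1-/- mice, which carry a disrupted gene for the transcription factor HSF1, HSP990 against vehicle in 12 week old R6/2 mice, which carry a transgene for the first exon of mutant human huntingtin, and heat shock (HS) against mock heat shock (control) in 12 week old wild type mice, whose bodies were warmed under isoflurane anesthesia. With 2 mice against 2, an exact permutation test of a single gene cannot go below 0.333, so p-values come from one model fitted across all genes and all 24 libraries.

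HSP90 is an abundant cytosolic chaperone that folds kinases, steroid hormone receptors and other clients together with co-chaperones. Under resting conditions HSP90, HSP70 and their partners hold HSF1 inactive, and when chaperones are occupied or inhibited HSF1 trimerizes, binds heat shock elements (inverted repeats of the letters GAA) and switches on chaperone genes. The glucocorticoid receptor is a client that needs HSP90 to bind its hormone. Skeletal muscle relies on chaperones such as UNC45B, HSPB1, CRYAB and BAG3 for myosin folding and for upkeep of the sarcomere.

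The 4 libraries held 22450177 to 32470315 counts on genes, and 13544 to 13922 genes had a count. A level is in CPM (counts over the TMM-scaled size of the library) and is not corrected for gene length, so it is compared between libraries and not between genes. The 2 mice of a group were further apart than sampling of reads gives, the chi-square divided by its degrees of freedom being 30.3 in vehicle and 33.7 in HSP990. Skeletal muscle markers were high in all 4 libraries. Acta1, the actin of the skeletal muscle thin filament, was at 57578 and 52663 CPM in the vehicle mice and 48784 and 54092 CPM in the HSP990 mice. Myh4, the fast IIb myosin heavy chain, was at 80002 and 81896 CPM and 76290.3 and 81411 CPM. Markers of fat were unequal between mice of 1 group: the 8 adipocyte markers summed to 344 and 697 CPM in the vehicle mice and 286 and 730.0 CPM in the HSP990 mice, so replicate 2 was the higher one in both groups.

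HSP990 changed 255 of the 13754 genes (1.85%) at an adjusted p below 0.05, by the quasi-likelihood test of edgeR (Benjamini-Hochberg), and these genes are said below to be called. Of them 199 rose (1.45%) and 56 fell (0.407%), and in all 255 the 2 HSP990 mice lay outside the range of the 2 vehicle mice. That separation alone is common here, because both HSP990 mice lay above both vehicle mice in 24.3% of all genes and below them in 24.7%. The rises were the larger side of the response: 127 genes rose at least 2-fold, 36 at least 4-fold and 11 at least 8-fold, against 36, 8 and 6 genes that fell by as much. The median log2 fold change was 1.23 over the called rises and -1.16 over the called falls, and 0.00 over all genes. The unadjusted p was below 0.05 in 1816 genes, 1196 of them higher. The count of calls rested on individual mice, and was 168 without vehicle replicate 1, 59 without vehicle replicate 2, 117 without HSP990 replicate 1 and 102 without HSP990 replicate 2. The share of calls that were rises was 78.0% with all mice and 63.1%, 89.8%, 88.0% and 87.3% in the same order. Without each mouse in turn 53 genes kept their call, of which 48 rose and 5 fell.

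**Figure D1:**
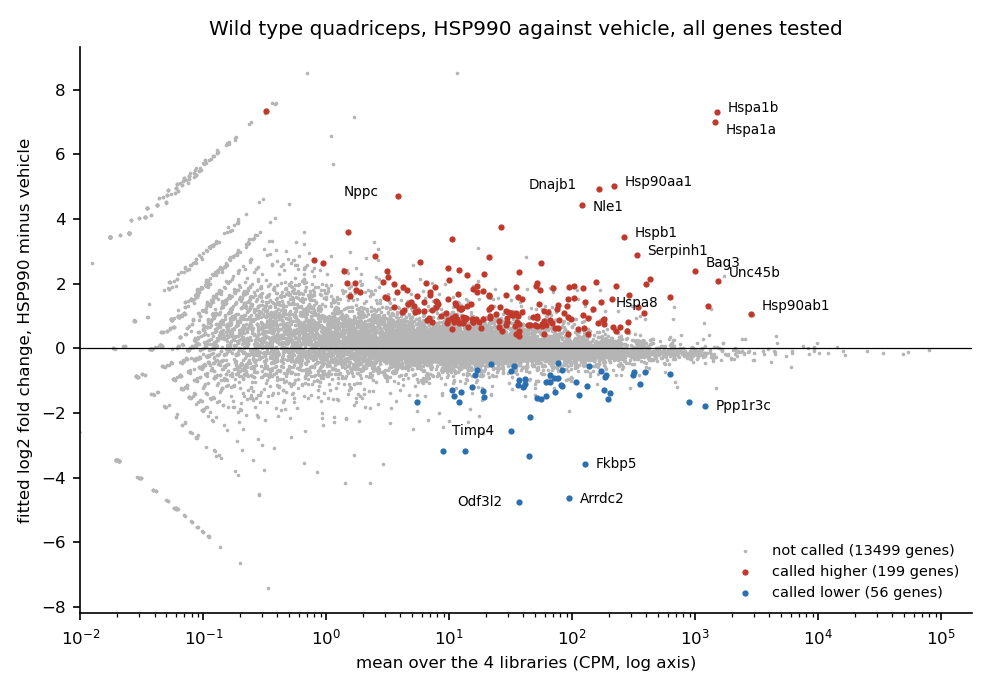
Each point is 1 of the 13754 genes tested, placed by its mean CPM over the 4 wild type libraries (log axis) and by its fitted log2 fold change, HSP990 minus vehicle; red marks the 199 genes called higher, blue the 56 called lower and grey the rest. The heat shock genes stand at the top right, with Hspa1b at 7.31 and Hspa1a at 7.0, while the called falls reach -4.76 at Odf3l2.

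The stress-inducible HSP70 genes showed the largest rises among called genes with a mean of at least 1 CPM. Hspa1b (chromosome 17, 35093381 to 35096183, minus strand, mm9) was at 21.4 and 16.0 CPM in the vehicle mice and at 3161 and 2787 CPM in the HSP990 mice, that is 18.7 ± 3.78 against 2974 ± 265 (SD, n = 2). Hspa1a (chromosome 17, 35106144 to 35109069, minus strand), which encodes a nearly identical protein beside it, was at 28.6 and 16.2 CPM and then at 2950.3 and 2777 CPM. In each gene both drug-treated mice lay about 2 orders of magnitude above both vehicle mice. The log2 fold changes were 7.31 ± 0.57 (SE) for Hspa1b and 7.0 ± 0.62 for Hspa1a, with edgeR adjusted p of 7.77e-07 and 2.79e-06. The transcripts match each other elsewhere on chromosome 17, so short reads may have been shared between them, and their separate values are uncertain.

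Other members of the HSP70 system rose with them. Hspa4l (chromosome 3, 40548417 to 40600025, plus strand), an HSP110-type partner of HSP70, was at 16.8 and 13.6 CPM with vehicle and 116 and 74.4 CPM with HSP990 (log2 fold change 2.65 ± 0.20, edgeR adjusted p 7.77e-07). Bag3 (chromosome 7, 135667097 to 135690491, plus strand), a nucleotide exchange factor of HSP70 that directs damaged sarcomere proteins to autophagy, was at 351 and 292 CPM and then at 1682 and 1666 CPM. Hsph1, which encodes HSP110, was at 157 and 159 CPM and 779 and 605 CPM. Bag3 rose by 2.38 ± 0.18 and Hsph1 by 2.13 ± 0.19 on the log2 scale, with edgeR adjusted p of 6.00e-07 and 2.79e-06. Over the list of HSP70, HSP110 and their exchange factors, 7 of 20 genes rose and none fell, against 1.85% of all genes called, and the same number was called without each mouse. The list median was 0.53, beside 0.00 over all genes. The constitutive member Hspa8, which encodes HSC70, was not called: it was at 126 and 101 CPM in the vehicle mice and 108 and 400.4 CPM in the HSP990 mice (log2 fold change 1.16 ± 0.81, edgeR adjusted p 0.594). Only HSP990 replicate 2 stood above the vehicle mice, and since 3 near-identical copies of the Hspa8 transcript were found in mm9, its counts are uncertain.

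The RNA of both cytosolic forms of HSP90 was higher in these libraries, that of the inducible form far more. By qPCR of the same muscle after HSP990, in more mice, the paper reports Hsp90ab1 as induced but Hsp90aa1 as unchanged. The reason for this disagreement on Hsp90aa1 was not tested. Hsp90aa1 (chromosome 12, 111928815 to 111940938, minus strand) was at 13.4 and 12.7 CPM in the vehicle mice and 464 and 386 CPM in the HSP990 mice, a rise of 5.02 ± 0.28 on the log2 scale (edgeR adjusted p 9.78e-09). Hsp90ab1 (chromosome 17, 45704724 to 45710220, minus strand), the constitutive form, was at 1947 and 1736 CPM and then 3972 and 3654 CPM, a rise of 1.05 ± 0.14 (edgeR adjusted p 3.24e-04). For Hsp90aa1 2 near-identical copies exist, on chromosomes 11 and 3, which can hold back reads from its count.

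The co-chaperones rose as a subset. Unc45b (chromosome 11, 82724052 to 82756905, plus strand), the muscle chaperone that folds myosin heads with HSP90, was at 589 and 600.3 CPM with vehicle and 2454 and 2535 CPM with HSP990. Its rise of 2.07 ± 0.13 on the log2 scale had an edgeR adjusted p of 9.10e-08. Ahsa2, related to the ATPase activator AHA1, was at 52.6 and 51.8 and 199 and 185 CPM and rose by 1.88 ± 0.16 (edgeR adjusted p 2.06e-06). Stip1, which encodes the HSP70 to HSP90 adaptor HOP, was at 139 and 143 and 469.6 and 412 CPM and rose by 1.64 ± 0.13 (edgeR adjusted p 1.30e-06). In the list of HSP90 and its co-chaperones 9 of 29 genes rose and 1 fell, against 1.45% and 0.407% of all genes. The median of the list was -0.05, and it lies below 0 although 9 members rose. The single fall was Fkbp5, a co-chaperone of steroid receptors that is also a glucocorticoid target and is described with those genes. The genes of HSP90 clients were a contrast: none of 27 steroid receptor and kinase genes was called, and their log2 fold changes ran from -0.33 to 0.35, with 1 gene at an unadjusted p below 0.05 and none called by DESeq2.

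Among HSP40 genes 4 of 12 rose, against 1.45% of all genes. Dnajb1 (chromosome 8, 86132074 to 86135801, plus strand), the HSP40 that stimulates the HSP70 ATPase, was at 9.40 and 11.8 CPM in the vehicle mice and 327 and 315 CPM in the HSP990 mice, with little spread in either group. The change was 4.92 ± 0.34 on the log2 scale (edgeR adjusted p 2.73e-07). Dnaja1 (chromosome 4, 40669183 to 40684182, plus strand) was at 3.97 and 3.3 CPM and then 54.5 and 43.5 CPM, a change of 3.75 ± 0.20 (edgeR adjusted p 9.78e-09). Dnaja4 and Dnajb4, further members of the A and B families, were called at 1.98 and 1.91, and these calls were lost without vehicle replicate 2 (edgeR adjusted p 0.0742 without vehicle replicate 2 for Dnaja4, and adjusted p 0.0757 without vehicle replicate 2 for Dnajb4), so that 4, 2, 4, 4 members were called without vehicle replicate 1, vehicle replicate 2, HSP990 replicate 1 and HSP990 replicate 2 in turn.

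All 6 small heat shock protein genes tested had a log2 fold change above 0, and 2 rose, against 1.45% of all genes called higher. Hspb1 (chromosome 5, 136363789 to 136365433, plus strand), which encodes HSP25, was at 55.6 and 34.5 CPM with vehicle and 435 and 536 CPM with HSP990 (log2 fold change 3.43 ± 0.43, edgeR adjusted p 1.68e-04). Hspb8, the partner of BAG3, was at 851 and 599 CPM and 1819.9 and 1763 CPM (log2 fold change 1.31 ± 0.22, edgeR adjusted p 0.00313), and its call was lost without vehicle replicate 2, which was its lower vehicle mouse (edgeR adjusted p 0.124 without vehicle replicate 2). Cryab, which encodes the lens and muscle chaperone alphaB-crystallin, was at 841 and 779 CPM and 1682 and 2048 CPM and was not called (log2 fold change 1.20 ± 0.38, edgeR adjusted p 0.140), though both HSP990 mice lay above both vehicle mice. A near-identical copy of the Hspb1 transcript lies on chromosome 13.

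**Figure D2:**
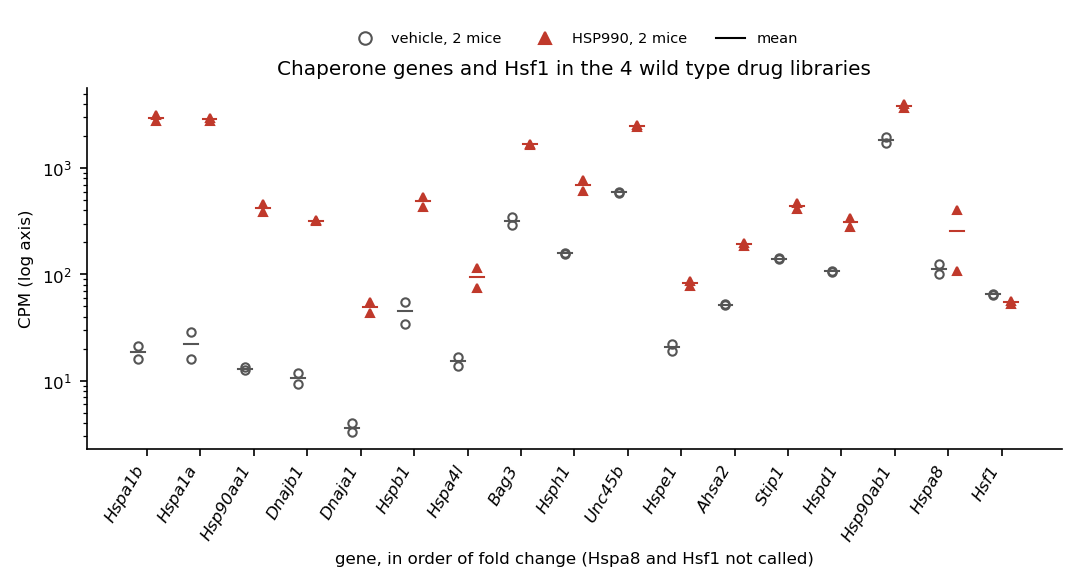
CPM (log axis) of 16 chaperone genes and Hsf1 in the 2 vehicle mice (open circles) and the 2 HSP990 mice (red triangles), with the mean of each pair as a bar. The triangles lie clear of the circles in every called gene, from Hspa1b to Hsp90ab1, whereas for Hspa8 the 2 HSP990 mice are apart at 108 and 400 CPM.

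Organelle chaperones responded in part, and the share of all genes called higher, 1.45%, stands behind the counts of this paragraph. Hspe1 and Hspd1, the paired mitochondrial chaperonin genes that encode HSP10 and HSP60 and share one promoter region on chromosome 1, both rose. Hspe1 was at 19.2 and 22.1 CPM with vehicle and 87.7 and 78.3 CPM with HSP990 (log2 fold change 2.01 ± 0.20, edgeR adjusted p 9.17e-06). Hspd1 was at 108 and 107 CPM and 342 and 279.7 CPM (log2 fold change 1.54 ± 0.12, edgeR adjusted p 1.30e-06). Each has near-identical copies elsewhere in mm9. They were the only calls among 17 mitochondrial chaperones and proteases, whose median was -0.20. Of these 17 genes 13 had a log2 fold change below 0, against 6896 of all 13754 genes. At an unadjusted p below 0.05 by edgeR 7 of the 17 were lower and 2 higher. In the endoplasmic reticulum, 2 of 32 genes of folding and of the unfolded protein response rose, one of them Hsph1, a cytosolic gene that the list also holds, and the other the disulfide isomerase gene Pdia3 (60.5 and 58.7 CPM against 91.9 and 92.9 CPM, log2 fold change 0.63). The call of Pdia3 was lost without any 1 of the 4 mice (adjusted p 0.129 without vehicle replicate 1, 0.334 without vehicle replicate 2, 0.127 without HSP990 replicate 1 and 0.185 without HSP990 replicate 2, edgeR). Hspa5, which encodes the endoplasmic reticulum HSP70 BiP, was at 131 and 119 CPM and 119.7 and 119 CPM (edgeR adjusted p 0.899). Of 16 genes of the CCT chaperonin, which folds actin and tubulin, and of its partner prefoldin, 3 rose by under 1 log2 unit, Cct7, Cct3 and Cct6a (0.75, 0.60 and 0.52), and 1, 0, 0, 2 were called without vehicle replicate 1, vehicle replicate 2, HSP990 replicate 1 and HSP990 replicate 2.

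Protein degradation genes showed no shared rise. None of the 33 proteasome subunit genes was called, 20 of them were lower in both HSP990 mice than in both vehicle mice, against 24.7% of all genes, and their log2 fold changes ran from -0.29 to 0.07, with 0 at an unadjusted p below 0.05 and 0 called by DESeq2. In the ubiquitin and aggregate list 3 of 20 rose, against 1.45% of all genes. These were Bag3, the ubiquilin gene Ubqln1 (10.6 and 11.6 against 16.4 and 18.7 CPM) and Zfand2a, an arsenite-inducible proteasome-associated zinc finger gene (22.3 and 18.1 against 56.8 and 59.2 CPM, log2 fold change 1.52 ± 0.20, edgeR adjusted p 2.95e-04). The call of Ubqln1 did not survive the loss of any 1 mouse (adjusted p 0.185 without vehicle replicate 1, 0.197 without vehicle replicate 2, 0.0723 without HSP990 replicate 1 and 0.266 without HSP990 replicate 2, edgeR). Among the NRF2 targets 2 of 26 rose, against 1.45% of all genes, the heme oxygenase gene Hmox1 (24.8 and 17.3 against 87.8 and 73.6 CPM, log2 fold change 1.94) and the aldehyde oxidase gene Aox1 (47.2 and 47.9 against 163 and 109.6 CPM, log2 fold change 1.52), both of which remained called without each mouse. None of 5 genes of heat shock factors and their binding protein was called by edgeR or DESeq2, and 0 had an unadjusted p below 0.05. Hsf1 was at 64.4 and 65.3 CPM with vehicle and 52.9 and 56.6 CPM with HSP990 (log2 fold change -0.24 ± 0.13, edgeR adjusted p 0.429).

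The promoters of the chaperone genes were searched for the heat shock element, taken as GAA, TTC and GAA with NN between neighbors, on both strands in the 250 bases before each RefSeq start (windows of GRCm38.p6), where N is any base. All 13 letters in this strict form stood in 53 of 10838 tested genes with a window (0.489%), in 3 of 153 genes called higher and in 0 of 48 called lower. The mitochondrial chaperonin genes Hspe1 and Hspd1 were among the 3. Of the heat shock panel, the windows of Hspa1a, Hspa1b, Dnajb1 and Hspb1 did not hold it and Hspa8, Hsp90aa1, Hsp90ab1 and Hsf1 had no window, and a looser search that let 1 of the 9 fixed letters differ was added after the strict result was seen. The looser form stood in 5.51% of the tested genes, in 29 of the 153 called higher (19.0%), in 1 of the 48 called lower, in 10 of the 30 called at least 4-fold higher and in 12 of 36 genes that rose more in wild type than in Hsf1-/- mice by a test of the difference. These shares are a description with no test, and a match of letters is not a site. The 8 chaperone genes with the largest called rises among those with a looser match are shown, each upstream of a RefSeq start of its gene. Each line runs 5′ to 3′ in the direction of the gene, with 12 bases on either side, and capitals mark the matching bases or overlapping matches. The RefSeq starts used for Dnaja1, Unc45b and Dnaja4 lie downstream of the first start annotated in mm9, so these 3 stretches fall inside the mm9 gene spans, and that of Hsph1 overlaps the edge of its span.
Hspa1b, chr17:35096268-35096309 (mm9, minus strand): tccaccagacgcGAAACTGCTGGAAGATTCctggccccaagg
Hspa1a, chr17:35109186-35109227 (mm9, minus strand): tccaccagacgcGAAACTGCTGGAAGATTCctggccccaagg
Dnaja1, chr4:40669360-40669396 (mm9, plus strand): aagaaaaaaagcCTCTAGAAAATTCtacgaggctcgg
Hspb1, chr5:136363660-136363696 (mm9, plus strand): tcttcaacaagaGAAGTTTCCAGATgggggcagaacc
Hsph1, chr5:150438915-150438956 (mm9, minus strand): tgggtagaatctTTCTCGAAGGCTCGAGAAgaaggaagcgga
Unc45b, chr11:82724537-82724573 (mm9, plus strand): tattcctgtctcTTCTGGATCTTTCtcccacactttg
Hspe1, chr1:55144891-55144932 (mm9, plus strand): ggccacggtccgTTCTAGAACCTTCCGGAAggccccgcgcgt
Dnaja4, chr9:54547254-54547295 (mm9, plus strand): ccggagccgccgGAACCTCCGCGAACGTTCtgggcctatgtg

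The stretches of Hspa1b and Hspa1a are the same 42 bases, 114 to 97 bases before each start, beside log2 fold changes of 7.31 and 7.0. Hspe1 was the gene of these 8 with the strict form, in 2 overlapping copies 89 to 72 bases before its start and also within the window of its neighbor Hspd1. In Hsph1 the overlapping matches lie closest to the start, 33 to 16 bases before it. Windows of Dnajb1, Hspa4l, Bag3, Ahsa2, Stip1 and Hspb8, all called higher, held neither form.

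Several of the largest rises lay outside the chaperone lists. Nle1 (chromosome 11, 82714270 to 82721913, minus strand), which encodes a ribosome assembly factor, was at 10.6 and 10.7 CPM with vehicle and 200.5 and 257 CPM with HSP990, a rise of 4.43 ± 0.24 on the log2 scale (edgeR adjusted p 9.78e-09). It lies head to head with Unc45b on chromosome 11 and overlaps Fndc8 on the opposite strand, and whether the counting used strand is not given in the sources used here. Serpinh1, the collagen chaperone HSP47, was at 87.2 and 70.9 CPM and then 599 and 581 CPM (log2 fold change 2.90 ± 0.28, edgeR adjusted p 9.67e-06). Ankrd34a, an ankyrin repeat gene, went from 1.61 and 1.47 CPM to 10.8 and 9.07 CPM (log2 fold change 2.68 ± 0.30, edgeR adjusted p 4.72e-05). All 3 kept their calls without each mouse.

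Nppc, the gene of C-type natriuretic peptide, and Mest, an imprinted gene of growing mesoderm, rose from low levels. Nppc was at 0.248 and 0.310 CPM in the vehicle mice and 6.24 and 8.51 CPM in the HSP990 mice (log2 fold change 4.70 ± 0.71, edgeR adjusted p 0.00135). Mest was at 1.86 and 1.82 CPM and 18.6 and 19.5 CPM (log2 fold change 3.37 ± 0.51, edgeR adjusted p 0.00125). In both genes the 2 mice of a group were close to each other, and each call held without any 1 mouse. By contrast 3 other large rises were uneven between the HSP990 mice. Esco2, a cohesin acetyltransferase gene, was at 0.290 and 0.155 CPM and 3.54 and 1.97 CPM (log2 fold change 3.61, lost at edgeR adjusted p 0.0785 without vehicle replicate 1, 0.292 without vehicle replicate 2 and 0.110 without HSP990 replicate 1). Sema4b, a semaphorin gene, was at 3.81 and 6.48 CPM and 59.8 and 13.4 CPM (log2 fold change 2.82, lost at edgeR adjusted p 0.158 without vehicle replicate 1, 0.134 without vehicle replicate 2 and 0.282 without HSP990 replicate 1). Ifi44, an interferon-induced gene, was at 0.911 and 0.310 CPM and 2.40 and 6.33 CPM (log2 fold change 2.85, lost at edgeR adjusted p 0.384 without vehicle replicate 2 and 0.312 without HSP990 replicate 2).

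Irf7, Oasl2 and Bst2, further genes that interferon induces, were picked after their values were seen and stand for no fixed list. Irf7, the transcription factor of the interferon response, was at 3.52 and 2.40 CPM with vehicle and 3.94 and 29.0 CPM with HSP990. Oasl2 was at 5.09 and 2.33 CPM and 6.94 and 25.1 CPM, and Bst2, which encodes tetherin, at 6.91 and 6.98 CPM and 16.3 and 36.7 CPM. In all 3 genes HSP990 replicate 2 was the highest of the 4 mice, and in Irf7 and Oasl2 HSP990 replicate 1 was only just above the higher vehicle mouse. All 3 were called (2.49, 2.12 and 1.93 on the log2 scale, edgeR adjusted p 0.0491, 0.0400 and 0.0182). All 3 calls were lost without HSP990 replicate 2 (edgeR adjusted p 0.863, 0.594 and 0.266) and without vehicle replicate 2, and those of Irf7 and Bst2 also without vehicle replicate 1. The largest fitted change of any called gene, 7.34 for the transcription factor gene Runx3, rests on a mean below 1 CPM, and its call was lost without any 1 of the 4 mice, with the highest edgeR adjusted p, 0.384, without vehicle replicate 2.

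Genes of the extracellular matrix were higher after HSP990 as a body, mostly without single genes passing the test. All 18 fibrillar and basement membrane collagen genes had a log2 fold change above 0, and in 17 of them both HSP990 mice lay above both vehicle mice, against 24.3% of all genes. Members of a list were read in the same 4 mice and are not independent observations, so these counts are a description. Their log2 fold changes ran from 0.50 to 1.35, with a median of 0.85, yet none was called by edgeR in the 24-library fit. An unadjusted p below 0.05 was reached by 14 of the 18, DESeq2 called 1 in the 24 libraries and 12 in the 4, and edgeR called 8 when fitted to the 4 libraries alone. Col1a2, a chain of type I collagen, was at 245 and 205 CPM with vehicle and 441 and 429 CPM with HSP990 (log2 fold change 0.95 ± 0.40, edgeR adjusted p 0.310). Col4a1, a chain of basement membrane collagen, was at 219 and 256 CPM and 406 and 537 CPM (log2 fold change 0.99 ± 0.38, edgeR adjusted p 0.245). Of the enzymes that fold and crosslink collagen 4 of 27 were called higher and none lower, against 1.45% and 0.407% of all genes. The median of this list was 0.57, below that of the collagen list. P4ha1, which encodes a prolyl hydroxylase subunit, was at 30.4 and 29.5 CPM and 115 and 105 CPM (log2 fold change 1.87 ± 0.16, edgeR adjusted p 1.71e-06). Plod1, a lysyl hydroxylase gene, was at 32.7 and 26.9 CPM and 84.0 and 70.8 CPM (log2 fold change 1.38 ± 0.19, edgeR adjusted p 6.38e-04). P4ha1, Plod1 and Serpinh1 held without each mouse, while the fourth, P4ha2 (26.7 and 28.2 against 50.05 and 43.4 CPM), lost its call without any 1 of them (adjusted p 0.192 without vehicle replicate 1, 0.292 without vehicle replicate 2, 0.215 without HSP990 replicate 1 and 0.112 without HSP990 replicate 2, edgeR).

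Of 31 genes of non-collagen matrix proteins 29 had a log2 fold change above 0, against 6830 of all 13754 genes, and 3 rose, against 1.45%. The 3 were the tenascin gene Tnc, the nidogen gene Nid2 and the laminin gene Lamc1 (1.21, 1.16 and 0.67 on the log2 scale). None of these 3 was called without any 1 of the mice, with edgeR adjusted p 0.233 without vehicle replicate 1, 0.189 without vehicle replicate 2, 0.163 without HSP990 replicate 1 and 0.144 without HSP990 replicate 2 for Tnc, adjusted p 0.126 without vehicle replicate 1, 0.384 without vehicle replicate 2, 0.10 without HSP990 replicate 1 and 0.223 without HSP990 replicate 2 for Nid2 and adjusted p 0.0894 without vehicle replicate 1, 0.423 without vehicle replicate 2, 0.108 without HSP990 replicate 1 and 0.244 without HSP990 replicate 2 for Lamc1. Plat, which encodes tissue plasminogen activator, was at 5.92 and 4.07 CPM and 15.9 and 13.1 CPM (log2 fold change 1.54, lost at edgeR adjusted p 0.0987 without vehicle replicate 2). Timp4, an inhibitor of matrix metalloproteases, went the other way and is one of the falls below. Alongside the matrix genes, 11 leukocyte markers summed to 42.8 and 41.8 CPM in the vehicle mice and 65.1 and 89.4 CPM in the HSP990 mice. Much of each sum was the macrophage lysozyme gene Lyz2 (21.5 and 19.7 against 40.8 and 45.7 CPM). It was the 1 member called, and its call was lost without any 1 of the mice. With each gene weighted equally, the mean of log2 CPM (0.5 added) was 1.00 and 1.17 in the vehicle mice and 1.23 and 1.67 in the HSP990 mice. Endothelial markers summed to 573 and 524 CPM in the vehicle mice and 647 and 718 CPM in the HSP990 mice over 8 genes, none called. The 7 fibroblast markers summed to 1263 and 1444 CPM in the vehicle mice and 1312 and 1436 CPM in the HSP990 mice, so those groups overlap. The part of these cells in the matrix values was not tested, and in whole muscle more cells of a type and more RNA per cell cannot be told apart. The same collagen list had a median of 0.09 in Hsf1-/- mice, 0.02 in R6/2 mice and -0.14 after HS. None of its 18 genes was called in the difference from Hsf1-/- mice, from R6/2 mice or from HS, so the list was not shown to respond differently.

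Immediate early and growth factor genes changed in a few members. Of 31 immediate early genes 5 rose and 1 fell, against 1.45% and 0.407% of all genes, shares that also stand behind the other lists of this paragraph. Dusp5 and Dusp2, phosphatases that switch off MAP kinases, were at 1.41 and 0.582 and 1.53 and 0.698 CPM with vehicle and at 4.54 and 5.81 and 4.54 and 4.67 CPM with HSP990 (log2 fold changes 2.38 and 2.05). Ier5, whose product acts on HSF1, was at 29.6 and 18.8 CPM and 91.8 and 78.2 CPM, and Jun, a subunit of AP-1, at 222 and 179 CPM and 455 and 523 CPM (log2 fold changes 1.81 and 1.29). The list lost most of these calls without single mice, with 3, 0, 1, 0 called without vehicle replicate 1, vehicle replicate 2, HSP990 replicate 1 and HSP990 replicate 2. Fos was at 11.8 and 8.92 CPM and 32.0 and 115 CPM and was not called (edgeR adjusted p 0.270). Of 31 BMP and TGF-beta genes the ligands Bmp2 and Tgfb2 and the transducer Smad1 rose (1.55, 0.97 and 0.95 on the log2 scale), and 2, 0, 1, 1 were called in the same order of mice left out. Actb and Myh9 were the calls among 27 actin cytoskeleton genes linked to SRF (0.55 and 0.80), and none remained without vehicle replicate 2, HSP990 replicate 2 or vehicle replicate 1, while both did without HSP990 replicate 1. Irs2, an adaptor of the insulin receptor, was at 42.8 and 47.03 CPM and 96.6 and 114 CPM (lost at edgeR adjusted p 0.187 without vehicle replicate 1, 0.284 without vehicle replicate 2, 0.0885 without HSP990 replicate 1 and 0.235 without HSP990 replicate 2), and Tubb2a was the call among 15 tubulins (4.43 and 4.11 against 8.58 and 14.5 CPM, lost at edgeR adjusted p 0.0824 without vehicle replicate 1, 0.219 without vehicle replicate 2 and 0.236 without HSP990 replicate 2). ATF4 targets, a readout of the integrated stress response, gave 0 calls of 34 and a median of 0.27, p53 targets 0 of 23, and cytokine and NF-kB genes 0 of 32, with 7, 3 and 8 genes at an unadjusted p below 0.05 by edgeR and 3, 2 and 1 called by DESeq2 in the 24 libraries.

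Among the falls, genes that glucocorticoids induce in muscle were the list with the most called members, 6 of the 56 falls. Fkbp5 (chromosome 17, 28536040 to 28654469, minus strand), the immunophilin that lowers hormone binding by the glucocorticoid receptor, was at 98.4 and 372 CPM in the vehicle mice and 22.2 and 17.1 CPM in the HSP990 mice. Arrdc2 (chromosome 8, 73359054 to 73363619, minus strand), an arrestin-domain gene, was at 78.8 and 284 CPM and then 6.59 and 7.92 CPM. Map3k6, a stress kinase gene, was at 11.3 and 36.7 CPM and 2.00 and 3.29 CPM. In each of these genes the HSP990 mice were close to each other and below both vehicle mice, while vehicle replicate 2 was over 3 times vehicle replicate 1. The log2 fold changes were -3.58 ± 0.69, -4.64 ± 0.76 and -3.16 ± 0.73, with edgeR adjusted p of 0.0123, 0.00266 and 0.0367. Glul, the glutamine synthetase gene, was at 809 and 1878 CPM and 356 and 493 CPM, and Sgk1, a kinase gene, at 166 and 164 CPM and 69.9 and 52.4 CPM (log2 fold changes -1.66 and -1.43, edgeR adjusted p 0.0300 and 0.0209).

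Over the list of glucocorticoid-responsive genes 6 of 32 fell and none rose, against 0.407% of all genes called lower. In 23 of the 32 both HSP990 mice lay below both vehicle mice, against 24.7%. A log2 fold change above 0 was seen in 5 of the 32, the highest at 5.35, none of them called. The median was -0.97, and the 32 genes summed to 6417 and 8017 CPM in the vehicle mice and 3489 and 3545 CPM in the HSP990 mice. Members that were not called include Klf15, a muscle transcription factor, at 100.2 and 149 CPM and 59.1 and 69.4 CPM, and Pdk4, which restrains glucose oxidation, at 2155 and 1929.7 CPM and 1002 and 762 CPM (edgeR adjusted p 0.0600 and 0.186). Nr3c1, which encodes the glucocorticoid receptor, was at 199 and 164 CPM and 225 and 198 CPM (log2 fold change 0.22, edgeR adjusted p 0.607). The calls of this list rested on vehicle replicate 2 and on both HSP990 mice: 8, 1, 1, 1 were called without vehicle replicate 1, vehicle replicate 2, HSP990 replicate 1 and HSP990 replicate 2. Fkbp5 was lost at edgeR adjusted p 0.244 without vehicle replicate 2, 0.0907 without HSP990 replicate 1 and 0.168 without HSP990 replicate 2, and Arrdc2 at edgeR adjusted p 0.0617 without HSP990 replicate 1 and 0.0579 without HSP990 replicate 2. Glul was lost at edgeR adjusted p 0.492 without vehicle replicate 2, 0.210 without HSP990 replicate 1 and 0.114 without HSP990 replicate 2, Map3k6 at adjusted p 0.452 without vehicle replicate 2, 0.215 without HSP990 replicate 1 and 0.193 without HSP990 replicate 2 and Sgk1 at adjusted p 0.0733 without vehicle replicate 1, 0.135 without vehicle replicate 2, 0.0651 without HSP990 replicate 1 and 0.229 without HSP990 replicate 2.

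Other large falls had the same shape only in part. Odf3l2 (chromosome 10, 79102271 to 79108483, minus strand), named for the outer dense fibers of sperm, gave the lowest log2 fold change of a called gene, -4.76 ± 1.11, with 16.9 and 126 CPM in the vehicle mice and 2.15 and 3.08 CPM in the HSP990 mice. Ppp1r3c, which targets phosphatase 1 to glycogen, was at 859 and 2899 CPM and 529 and 556 CPM (log2 fold change -1.79). Depp1, a FOXO target, was at 15.7 and 16.1 CPM and 2.20 and 1.42 CPM, and Klf2, a shear-stress factor of endothelium, at 16.3 and 19.9 CPM and 4.19 and 7.09 CPM (log2 fold changes -3.16 and -1.67). Vehicle replicate 2 was the higher vehicle mouse in Odf3l2 and Ppp1r3c by over 3 times, whereas in Depp1 and Klf2 the vehicle mice were close. Without single mice these calls were lost, at edgeR adjusted p 0.492 without vehicle replicate 2, 0.215 without HSP990 replicate 1 and 0.244 without HSP990 replicate 2 for Odf3l2, adjusted p 0.725 without vehicle replicate 2, 0.224 without HSP990 replicate 1 and 0.266 without HSP990 replicate 2 for Ppp1r3c, adjusted p 0.0862 without vehicle replicate 1, 0.172 without vehicle replicate 2, 0.136 without HSP990 replicate 1 and 0.301 without HSP990 replicate 2 for Depp1 and adjusted p 0.0669 without vehicle replicate 1, 0.292 without vehicle replicate 2, 0.235 without HSP990 replicate 1 and 0.0817 without HSP990 replicate 2 for Klf2. Fgfr3, Prickle3, Lrrc30 and Adamtsl4, the rest of the 15 largest falls, lay between -1.65 and -1.52 and were all lost without vehicle replicate 2 and without HSP990 replicate 1 (edgeR adjusted p 0.254 without vehicle replicate 2 and 0.168 without HSP990 replicate 1 for Fgfr3, adjusted p 0.244 without vehicle replicate 2, 0.0836 without HSP990 replicate 1 and 0.0997 without HSP990 replicate 2 for Prickle3, adjusted p 0.377 without vehicle replicate 2, 0.155 without HSP990 replicate 1 and 0.0845 without HSP990 replicate 2 for Lrrc30 and adjusted p 0.487 without vehicle replicate 2, 0.216 without HSP990 replicate 1 and 0.169 without HSP990 replicate 2 for Adamtsl4).

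The 5 falls that held without each mouse were Tfcp2l1, Timp4, Dusp7, Slc9a3r2 and Tbx15. Tfcp2l1 (chromosome 1, 120524522 to 120581744, plus strand), a transcription factor gene, was at 36.6 and 125 CPM with vehicle and 8.13 and 7.79 CPM with HSP990 (log2 fold change -3.34 ± 0.47, edgeR adjusted p 6.24e-04). The WT control mice of the HS experiment were at 9.89 and 12.0 CPM for Tfcp2l1, below both vehicle mice. Timp4 (chromosome 6, 115195634 to 115201867, minus strand) was at 52.1 and 55.9 CPM and 7.09 and 11.2 CPM, with close vehicle mice (log2 fold change -2.55 ± 0.34, edgeR adjusted p 3.32e-04). Dusp7, a phosphatase of ERK, was at 48.1 and 100.1 CPM and 17.7 and 16.2 CPM (log2 fold change -2.13 ± 0.29, edgeR adjusted p 4.66e-04). Slc9a3r2, a scaffold gene, and Tbx15, a transcription factor gene of glycolytic muscle fibers, fell by less (-1.28 and -0.81), and both are named after their values were seen.

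**Figure D3:**
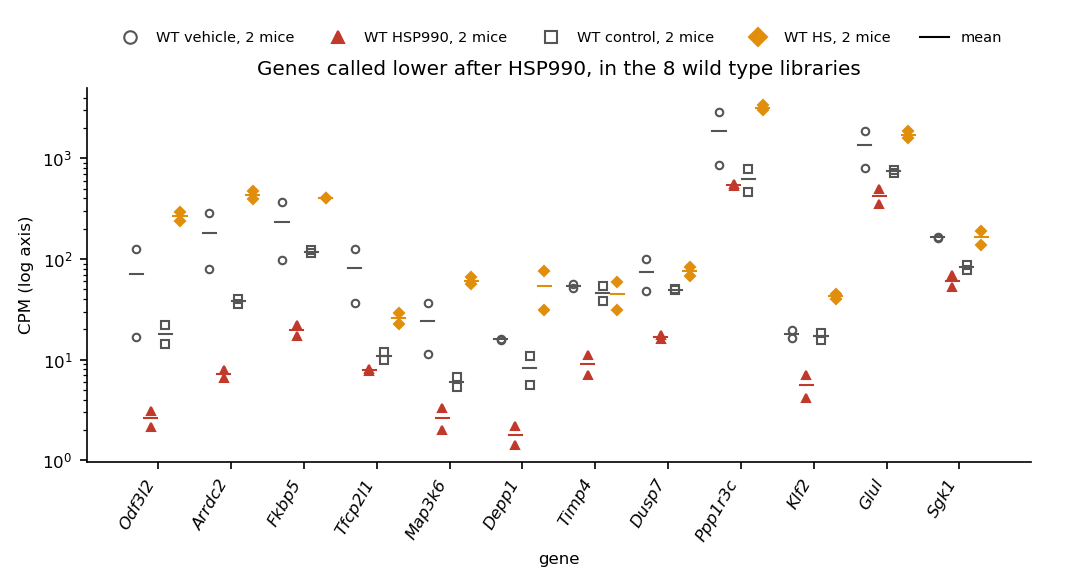
CPM (log axis) of 12 genes called lower after HSP990 in the 8 wild type libraries, with open circles for WT vehicle, red triangles for WT HSP990, open squares for WT control, orange diamonds for WT HS and a bar at each mean of 2 mice. The triangles have the lowest mean of the 4 groups in each gene, the 2 vehicle circles lie far apart in genes such as Arrdc2 and Ppp1r3c, and the diamonds lie above the squares in all genes shown except Timp4, where they overlap.

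Structural and metabolic genes of muscle moved little. Over all genes 0.407% were called lower, and 6896 of 13754 had a log2 fold change below 0. None of 37 sarcomere and fiber type genes was called, and none of 30 nuclear-encoded respiratory chain genes was (2 of each at an unadjusted p below 0.05 by edgeR, 0 called by DESeq2 in the 24 libraries), though all 30 had a log2 fold change below 0, from -0.33 to -0.06. Atp5b, a subunit of ATP synthase, was at 4737 and 4541 CPM with vehicle and 4650.3 and 3847 CPM with HSP990. Among 27 glycolysis and glycogen genes 2 fell, Ppp1r3c and Pfkfb1 (89.6 and 110.0 against 57.7 and 47.7 CPM, lost at edgeR adjusted p 0.351 without vehicle replicate 2, 0.0781 without HSP990 replicate 1 and 0.266 without HSP990 replicate 2). In the clock list 2 of 27 fell, the deubiquitinase gene Usp2 (371 and 595 against 225 and 224 CPM, log2 fold change -1.11, lost at edgeR adjusted p 0.0744 without vehicle replicate 2) and the clock output gene Noct (81.4 and 147 against 53.9 and 48.9 CPM, log2 fold change -1.15, lost at edgeR adjusted p 0.452 without vehicle replicate 2, 0.108 without HSP990 replicate 1 and 0.210 without HSP990 replicate 2), and the median of the list was -0.07. Of 29 myogenic and injury genes none was called by edgeR, 7 had an unadjusted p below 0.05 and DESeq2 called 2.

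Beside the leukocyte marker Lyz2, edgeR called no cell type marker. Of the 8 endothelial markers 3 were higher and 1 was lower at an unadjusted p below 0.05, DESeq2 called 1 in the 24 libraries and 2 in the 4, and edgeR called 1 without vehicle replicate 1. It called none among the markers of skeletal muscle (10 genes), adipocytes (8), fibroblasts (7), satellite cells (5), smooth muscle and pericytes (7), Schwann cells (4) or erythrocytes (3), with 1 fibroblast and 1 smooth muscle marker at an unadjusted p below 0.05 and 1 fibroblast marker called by DESeq2 in the 24 libraries. All 10 skeletal muscle markers had a log2 fold change below 0, against 6896 of all 13754 genes, and the lowest was -0.34. They summed to 234189 and 230968 CPM in the vehicle mice and 214303 and 223797 CPM in the HSP990 mice. Satellite cell markers summed to 43.0 and 34.3 CPM in the vehicle mice and 36.9 and 34.4 CPM in the HSP990 mice, with Pax7 at 3.93 and 3.22 and 5.14 and 5.16 CPM. Smooth muscle and pericyte markers summed to 339.6 and 333 CPM in the vehicle mice and 425 and 364 CPM in the HSP990 mice, Schwann cell markers to 120.2 and 134 CPM in the vehicle mice and 150.2 and 163 CPM in the HSP990 mice and erythrocyte markers to 17.5 and 26.0 CPM in the vehicle mice and 7.38 and 31.9 CPM in the HSP990 mice. No marker gene was at 0 in all 4 libraries, though 1 leukocyte marker had 2 counts over them.

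**Figure D4:**
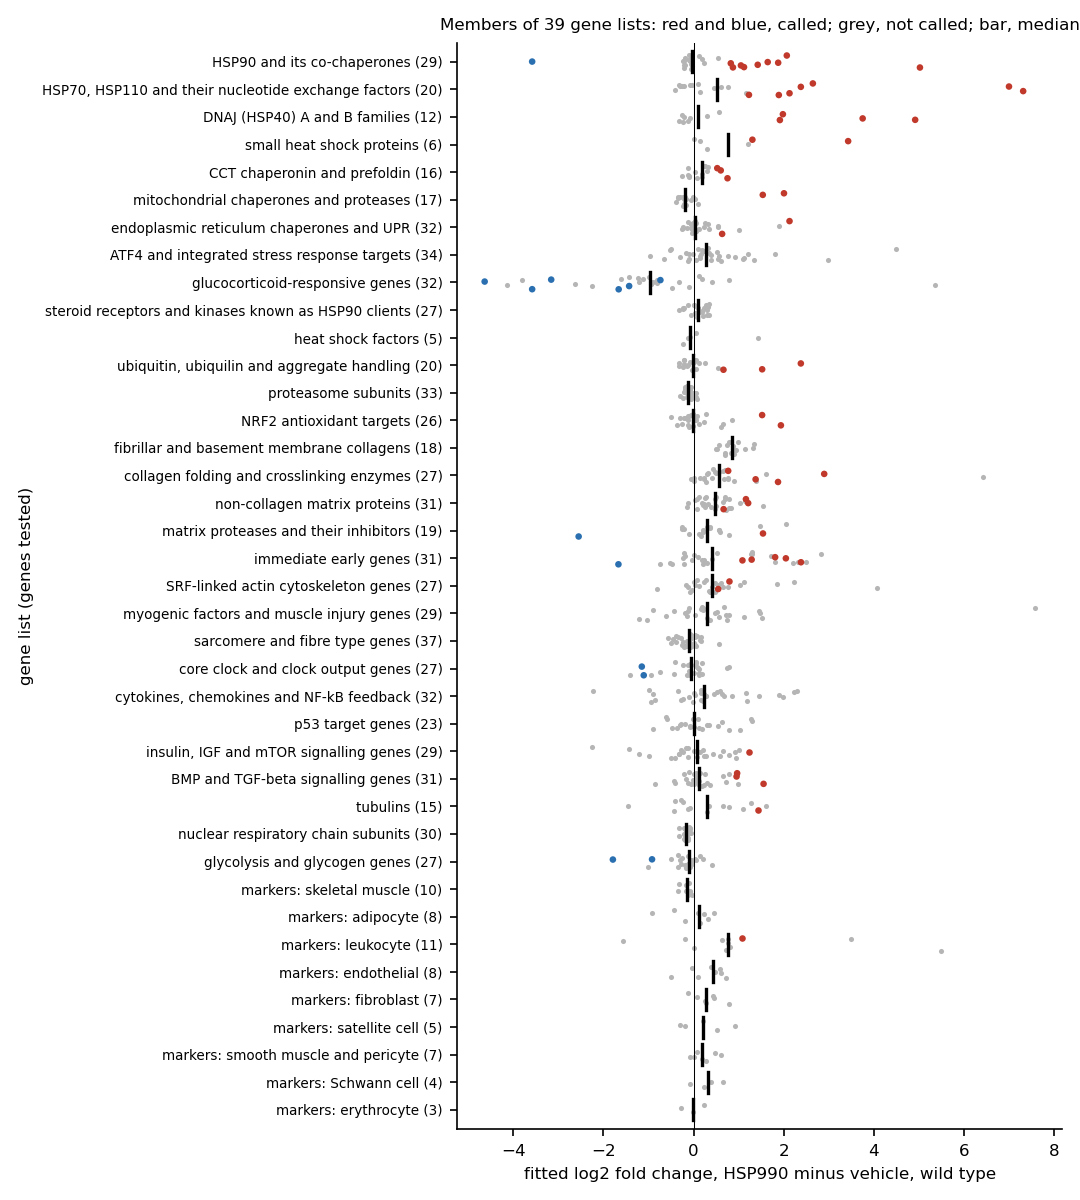
Fitted log2 fold change, HSP990 minus vehicle in wild type muscle, of the tested members of 39 gene lists, 1 point a gene, red for called higher, blue for called lower and grey for not called, with a bar at each median. Called rises gather in the chaperone lists at the top, the glucocorticoid list has the lowest median (-0.97), and the collagen list lies wholly above 0 without a called gene.

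The question whether the response needs HSF1 was addressed with the Hsf1-/- mice, 8 weeks old against 12 weeks for wild type, so genotype and age cannot be told apart. The targeted gene was lower but present in them: Hsf1 was at 28.7 and 27.5 CPM in Hsf1-/- vehicle mice and 21.1 and 27.6 CPM in Hsf1-/- HSP990 mice, against 64.4 and 65.3 CPM in WT vehicle. The Hsf1-/- response itself had 30 called genes (0.218%). The test of the difference between the wild type and the Hsf1-/- response called 58 genes (0.422%), of which 45 had the higher response in wild type. Of the 199 wild type rises 44 were among them, and of the 56 falls 1. The wild type libraries that chose these genes also enter this difference, so the choice can raise both counts. Across the 199 rises the median log2 fold change was 1.23 in wild type, where these genes were chosen, and 0.17 in Hsf1-/- mice. For the 56 falls the medians were -1.16 and -0.60. Leaving out 1 mouse, the count was lowest at 35, without WT vehicle replicate 2.

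The chaperone rises differed by genotype. Hspa1b was at 4.14 and 2.66 CPM in Hsf1-/- vehicle mice and 3.19 and 3.85 CPM in Hsf1-/- HSP990 mice, a log2 fold change of 0.05 ± 0.53 that was 7.27 ± 0.73 below that of wild type (edgeR adjusted p of the difference 4.82e-05). Hsp90aa1 was at 6.45 and 7.02 CPM and 13 and 9.46 CPM in these mice (difference 4.28 ± 0.36, edgeR adjusted p 4.47e-06). Dnajb1 was at 8.00 and 9.13 CPM and 8.80 and 6.96 CPM (difference 5.03 ± 0.45, edgeR adjusted p 1.07e-05), and Unc45b at 529 and 451 CPM and 395 and 410.2 CPM (difference 2.35 ± 0.18, edgeR adjusted p 2.35e-06). In Dnajb1, Unc45b and Hspa1b the 2 Hsf1-/- groups overlapped or HSP990 was the lower one, whereas in wild type the groups were far apart. All 7 risen genes of the HSP70 list and 7 of the HSP90 list were called in this difference. Nle1 (8.85 and 10.7 against 6.10 and 6.57 CPM) and Serpinh1 (86.6 and 60.9 against 107 and 87.6 CPM) were called too, at differences of 5.06 and 2.50. Hspb1 had a difference of 3.26 ± 0.57 (edgeR adjusted p 0.0101).

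Most of the 199 rises were not called in the difference from Hsf1-/- mice, which held 44 of them. A rise that was not called there is not shown to be equal in both genotypes. Hmox1 rose by 1.94 in wild type and had a log2 fold change of 0.92 in Hsf1-/- mice (difference 1.02 ± 0.32, edgeR adjusted p 0.378), and Dnaja4, Dnajb4 and Hspb8 were not called in the difference either (0.131, 0.311 and 0.135). Timp4 and Klf2 fell in both genotypes, Timp4 by -2.55 and -2.25 and Klf2 by -1.67 and -2.56 on the log2 scale (edgeR adjusted p in Hsf1-/- 0.00447 and 0.00477). For the glucocorticoid list the medians were -0.97 in wild type and -0.57 in Hsf1-/- mice, and no member was called in the difference. ATF4 targets had a median of 0.93 in Hsf1-/- mice against 0.27 in wild type, and 4 of 34 were called in the difference, against 0.422% of all genes.

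In R6/2 mice, a model of Huntington's disease, 197 genes (1.43%) were called after HSP990 and none (0%) in the test of the difference from wild type. In that difference 981 genes had an unadjusted p below 0.05 by edgeR, 658 with the higher log2 fold change in wild type and 323 with the lower. DESeq2 called 49 in the 24 libraries (42 higher in wild type, 7 lower) and 92 in the 8 compared (73 higher, 19 lower). The wild type rises had a median of 0.52 in R6/2 mice, 176 of 199 had the same direction and 50 were called. Rises and falls were chosen by their wild type change, and this choice alone favors larger values in wild type. Hspa1b was at 8.46 and 4.78 CPM in R6/2 vehicle mice and 739 and 932 CPM in R6/2 HSP990 mice. Its log2 fold change of 6.97 differed from that of wild type by 0.34 ± 0.62 (edgeR adjusted p 0.943). Dnajb1 was at 11.4 and 9.33 CPM and 94.9 and 143 CPM, a log2 fold change of 3.52 and a difference of 1.40 ± 0.42 (edgeR adjusted p 0.471). Unc45b was at 338 and 381 CPM and 915 and 887 CPM, with a difference of 0.74 ± 0.18 (edgeR adjusted p 0.316). Among the 56 wild type falls 55 had the same direction in R6/2 mice, 26 of them called, with a median of -0.82. Fkbp5 was at 301 and 246 CPM and 12.4 and 34.4 CPM there, a log2 fold change of -3.54 (edgeR adjusted p 0.0131).

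Of the 199 genes that HSP990 raised, 45 were also raised by heat shock, and of the 56 that it lowered, 16 were raised by heat shock. The HS response had 283 called genes (2.06%), and 328 genes (2.38%) were called in the difference between the HSP990 and the HS response of wild type mice, 146 of them higher and 182 lower for HSP990. HS and HSP990 were given to different mice with their own untreated groups. The libraries of the HS experiment also held 0 counts on 4 Y-linked genes that had 3923 to 4870 in the WT vehicle and HSP990 libraries, so treatment and the sex of the mice cannot be told apart in this comparison. Without WT vehicle replicate 2 the difference called 94 genes, and leaving out any other mouse gave 137 to 293. Hspa1b was at 1.84 and 4.89 CPM in WT control mice and 853 and 858 CPM in WT HS mice, a log2 fold change of 7.97 that differed from that for HSP990 by -0.65 ± 0.65 (edgeR adjusted p 0.695). Bag3 was at 214 and 278 CPM and 1074 and 1178 CPM (difference 0.19 ± 0.24, edgeR adjusted p 0.776). For Hspa1b and Bag3 both vehicle mice lay above both control mice, and both HSP990 mice above both HS mice. The levels of these genes thus differed before and after treatment, though the difference in fold change was not called. Dnajb1, Nle1, Hspa4l, Unc45b and P4ha1 rose more with HSP990 than with HS. Dnajb1 was at 11.2 and 8.17 CPM and 25.6 and 61.9 CPM around HS (difference 2.74 ± 0.43, edgeR adjusted p 0.00369). Unc45b was at 575 and 562 CPM and 1426 and 1371 CPM (difference 0.77 ± 0.18, edgeR adjusted p 0.0317).

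Nppc and Mest were called in this difference as well. Nppc was at 0.720 and 0.560 CPM in control and 0 and 0.0832 CPM in HS mice, so that it rose after HSP990 while its log2 fold change after HS was -3.88 (edgeR adjusted p 0.0673, and 0.00216 for the difference). Mest was at 4.63 and 5.34 CPM and 5.07 and 5.53 CPM around HS (difference 3.28 ± 0.68, edgeR adjusted p 0.0153). For Nppc and Mest both control mice lay above both vehicle mice, so the untreated levels differed. The part of these levels in the differences was not tested. Over the 199 rises the median log2 fold change after HS was 0.28, 138 had the same direction, 3 were called lower and 54 were called in the difference. The libraries that chose the rises also enter this difference, so the choice can raise the last count.

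Most of the falls had the opposite sign after HS. Over the 56 genes that fell with HSP990 the median log2 fold change after HS was 0.61, and 7 had the same direction, of which 2 were called. In the difference 43 were called, a count that the choice of these genes by the HSP990 response can raise. Arrdc2 was at 40.6 and 35.7 CPM in control mice and 478 and 391 CPM in HS mice, a log2 fold change of 3.51 against -4.64 with HSP990 (edgeR adjusted p of the difference 0.00166). Ppp1r3c was at 464 and 787 CPM and 3387 and 2999.7 CPM, 2.35 against -1.79 (edgeR adjusted p 0.00299), and Map3k6 at 5.35 and 6.76 CPM and 56.3 and 66.1 CPM, 3.33 against -3.16 (edgeR adjusted p 0.00350). In Arrdc2, Ppp1r3c, Map3k6, Tfcp2l1, Depp1, Glul and Sgk1 both vehicle mice also lay above both control mice, so the untreated levels differed as well. In Fkbp5, Odf3l2 and Klf2 the vehicle and control mice overlapped. The part of the untreated levels in the opposite signs was not tested. For the glucocorticoid list the median was 1.76 after HS and -0.97 after HSP990, and 22 of its 32 genes were called in the difference, against 2.38% of all genes. The list held genes that were not called with HSP990 alone, among them the metallothionein gene Mt2 (14.8 and 49.6 CPM with vehicle and 6.59 and 3.98 CPM with HSP990, log2 fold change -2.62 against 4.93 after HS, edgeR adjusted p of the difference 0.00634) and Ddit4, an inhibitor of mTOR (16.3 and 31.0 CPM and 3.94 and 5.81 CPM, -2.26 against 5.71, edgeR adjusted p 0.00437). Timp4 was the exception in direction among the 9 largest falls, with 38.7 and 54.0 CPM in control and 58.8 and 30.9 CPM in HS mice.

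**Figure D5:**
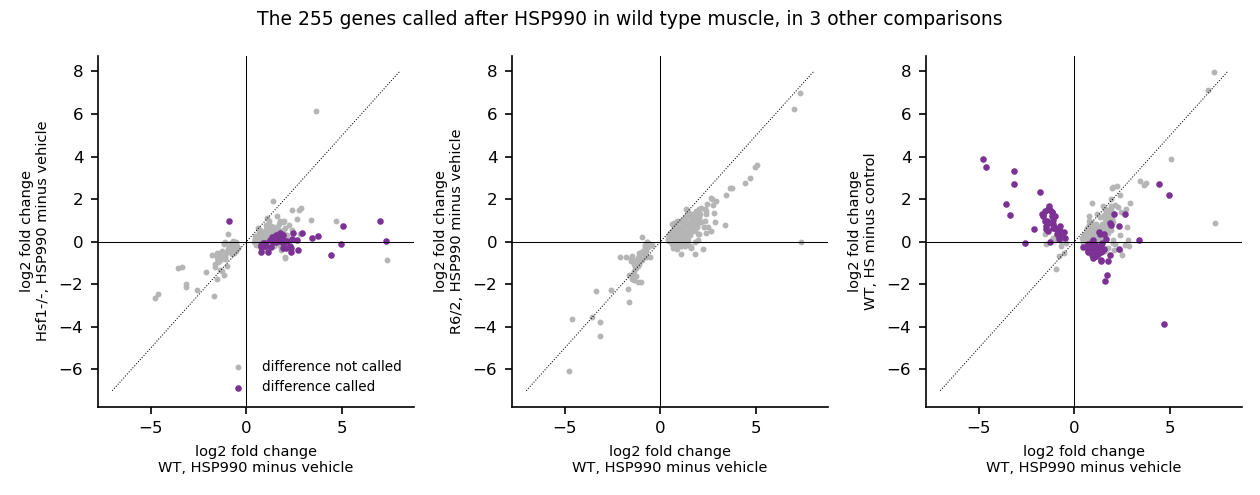
Log2 fold changes of the 255 genes called after HSP990 in wild type muscle (x axis) against their log2 fold changes in Hsf1-/- mice given HSP990, R6/2 mice given HSP990 and wild type mice given HS (y axes), with purple for genes whose difference from the wild type HSP990 response was called and a dotted line where both would be equal. Rises lie near 0 for Hsf1-/- mice and most falls lie below 0 there. R6/2 points mostly keep the sign of wild type and lie nearer 0 than the line. Their medians are 0.52 for the rises and -0.82 for the falls, with no called difference. After HS most falls lie above 0. The genes were chosen by their wild type HSP990 change, and this choice alone favors larger values on the x axis.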

How the data were processed

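Polyadenylated RNA of quadriceps femoris was sequenced by the authors as strand-specific paired reads and mapped with Bowtie to mm9 (per the labels and the study's methods). They deposited raw gene counts, 1 column per mouse, without normalization, and the counting program and annotation are not given in the sources used here. Samples were grouped by their labels, and nothing says whether mice shared a litter or cage. Genes were counted under NCBI numbers, of which 18594 of 18669 matched a RefSeq symbol (GRCm38.p6) and 18271 mm9 coordinates (GENCODE vM1). The gene filter follows the study's methods.

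Counts were scaled by TMM and fitted as 12 groups with edgeR 4.0.16 in R 4.3.3 by quasi-likelihood on 12 residual degrees of freedom, with Benjamini-Hochberg adjustment over 13754 genes at 0.05. Differences between responses were contrasts of that fit. The script was tested on simulated data. Fold changes of genes near 0 counts depend on edgeR's prior count. Named genes were a heat shock panel, the 15 largest rises and 15 largest falls among calls of at least 1 CPM whose groups did not overlap, and up to 5 called members of each of 39 lists or else the 2 of highest CPM, and others are marked where they appear or give context. Genes, lists and comparisons were chosen with earlier results of these data known. Transcripts were matched to mm9 with minimap2 2.31-r1302 to find near-identical copies. Alternatives were RLE factors, library size only, other filters, DESeq2 1.42.0, fewer libraries, a replicate block and leaving out each mouse.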

Additional observations from a re-analysis of the deposited data

Results flagged for a closer look

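Results appear here because a test of the difference between 2 responses was called (edgeR's quasi-likelihood test, adjusted p below 0.05), either over all genes or for a gene among the heat shock panel and the largest changes. Between wild type and Hsf1-/- mice given HSP990 58 genes differed. The wild type log2 fold change was higher by 7.27 for Hspa1b, 6.04 for Hspa1a, 5.06 for Nle1, 5.03 for Dnajb1 and 4.28 for Hsp90aa1. It was higher by 3.50 for Dnaja1, 3.26 for Hspb1, 3.07 for Ankrd34a, 2.57 for Hspa4l, 2.50 for Serpinh1 and 1.26 for Hsp90ab1.

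Between HSP990 and HS in wild type mice 328 genes differed. The log2 fold change was higher with HSP990 by 8.58 for Nppc, 3.28 for Mest, 2.74 for Dnajb1, 1.71 for Nle1 and 1.34 for Hspa4l. Among the falls the difference, HSP990 minus HS, was -8.63 for Odf3l2, -8.15 for Arrdc2, -6.49 for Map3k6, -5.86 for Depp1 and -5.36 for Fkbp5. It was -4.58 for Tfcp2l1, -4.14 for Ppp1r3c, -3.0 for Prickle3, -2.98 for Klf2 and -2.92 for Fgfr3. It was -2.87 for Glul, -2.74 for Dusp7, -2.54 for Lrrc30 and -2.51 for Timp4. Groups of 2 mice are too small for a test of single outlying mice.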

How the results depend on the processing

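All 255 genes called for HSP990 in wild type muscle kept the sign of their fold change under the 14 alternatives, and 51 (48 rises and 3 falls) stayed called under every one. Against 255 calls, the total was 242 with RLE factors, 281 with library size only, 280 with no filter and 256 with filterByExpr, of which 241, 241, 245 and 255 were among the 255. The count was 158 (135 higher, 23 lower) with only the 4 libraries compared, 460 with the 8 wild type libraries, and 542 and 670 with DESeq2 on 24 and on 4 libraries, and 59 to 168 without single mice. The difference from Hsf1-/- mice called 24 genes with only the libraries compared, 118 and 128 with DESeq2, and 35 to 73 without single mice. The difference from R6/2 mice called 49 and 92 with DESeq2, and 0 to 10 without single mice, where the 10 came without R6/2 vehicle replicate 1. The difference from HS called 596 with only the 8 wild type libraries, 648 and 938 with DESeq2, and 94 to 293 without single mice. With library size only it called 463, of which 314 were higher for HSP990, against 146 of 328.

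Same-numbered mice did not deviate together throughout: the correlation of their deviations over 11119 genes was 0.239 for WT vehicle and HSP990, -0.122 for Hsf1-/-, -0.077 for R6/2 and -0.242 for WT control and HS, so the numbers were not taken as pairs. A replicate block gave 222 calls for the response and 54, 0 and 310 for the differences from Hsf1-/-, R6/2 and HS. A replicate block within each experiment, added after the data had been seen, gave 136, 38, 0 and 222, and with crossed numbers the block gave 32 for Hsf1-/- and 218 for HS. The causes of these shifts were not tested. How far depth limits these counts was not tested.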
